A study of Mus musculus with 4 samples.

Results

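Receptors and bridging proteins of efferocytosis were followed across the immune cells of the mouse lung: Mertk, Axl, Gas6, Pros1, Mfge8, Itgav, Itgb5, Anxa1, Msr1 and Anpep. The 10 genes were taken by symbol from the 31053 genes of the deposited matrices, and each symbol matched 1 row. The mice were C57BL/6J, 10 weeks old and homozygous for the floxed allele (Lmna-flox/flox), and their Cre genotype was Vav1-cre-/- in the 2 called WT and Vav1-cre+/- in the 2 called knockout. Live CD45.2+ cells were sorted from their lungs, and the study profiled single cells with a Chromium 3-prime v3 kit. Only the knockout mice carry Cre, so an effect of Cre and an effect of Lmna loss cannot be told apart. Vav1-cre acts in blood-forming cells and their descendants, and the floxed part of Lmna is not given in the sources used here.

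Efferocytosis is the uptake of dying cells by phagocytes. Dying cells expose phosphatidylserine, which soluble bridging proteins such as GAS6, protein S and MFG-E8 bind at one end, while the other end binds a receptor on the phagocyte. MERTK and AXL are receptor tyrosine kinases of the TAM family, integrin alpha-V pairs with beta-5 to bind MFG-E8, and scavenger receptors take up modified lipids and debris. Alveolar macrophages, the resident phagocytes of the airspace, clear dead cells and spent surfactant.

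The 4 libraries held 3860 to 4322 barcodes and 21780914 to 27045250 UMIs each, and 14720 cells remained after filters and removal of 461 doublets. Each cell was placed in a class by its markers, none of which is a member, and 855 cells stayed without a class. There were 206 (WT 1), 218 (WT 2), 50 (knockout 1) and 29 (knockout 2) alveolar macrophage-like cells, with median depths of 13413 to 16800 UMIs. All 10 alveolar macrophage markers were detected in each of these 4 sums, at 19304 to 23357 CPM together (UMIs scaled to a common total of 1e+06). Chil3 made up most of that sum, and 3 of the 10 were lower in knockout cells by edgeR: Cidec by a log2 fold change of -1.21 (adjusted p = 1.03e-05), Fabp1 of -0.75 (adjusted p = 0.00108) and Ear2 of -0.59 (adjusted p = 0.00237). A T precursor-like class came almost wholly from WT 2 (440 of 516 cells), and 22 barcodes occurred in more than 1 library, 1 of them in an alveolar macrophage-like cell. Lmna itself stood at 380 and 328 CPM in WT and 58.9 and 83.2 CPM in knockout alveolar macrophage-like cells, and fell by 2.34 on the log2 scale (SE 0.18, adjusted p = 2.11e-10, edgeR). It fell in NK-like cells too (25.3, 26.7, 3.84 and 9.45 CPM, adjusted p = 0.0381, edgeR). In B-like cells it was lower in both knockout libraries (15.8, 10.4, 5.75 and 5.75 CPM) but was not called (log2 fold change -1.20, SE 0.29, adjusted p = 0.0955, edgeR). Lmna overlapped between genotypes in CD4 T-like (9.44, 5.33, 5.94 and 7.75 CPM) and classical monocyte-like cells (8.25, 11.1, 6.23 and 13.2 CPM). The counted 3-prime end may lie outside the deleted part. The 4 libraries come from mice that the labels number 1 and 2 in each genotype, and the p-values below measure only the spread between these libraries.

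In WT, Mertk was found almost wholly in macrophages, and Axl was highest of the tested classes in alveolar macrophage-like cells. Annexin A1 was spread over myeloid cells and lay above the mean of the other classes in NK-like cells too. Integrin alpha-V was spread over most classes. Levels below are CPM of the UMIs summed per library and class, scaled by TMM factors within a class, and given as mean ± SD over 2 WT libraries. Because the kit counts 3-prime ends, levels were compared between classes for 1 gene and not between genes. In the WT fit, which set each of 9 classes with at least 25 cells per library against the mean of the others, 6 of the 8 members that passed the count filter were called higher in alveolar macrophage-like cells (Mertk, Axl, Pros1, Itgb5, Anxa1 and Msr1), where 38.0% of 10731 genes were called higher. In classical monocyte-like cells 7 of 8 were called higher (all but Mertk), against 31.8% of genes, and in nonclassical monocyte-like cells 6 of 8, against 27.4%. Neutrophil-like cells had 1 such member, Anxa1, against 31.3% of genes. NK-like cells had 2 (Mfge8 and Anxa1), CD4 T-like and CD8 T-like cells 1 each (Mfge8), and B-like and other T-like cells 0. The shares of all genes for these lymphoid classes are not given here. Sizes of these contrasts are not given, since several classes held no UMI of a member.

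**Figure D1:**
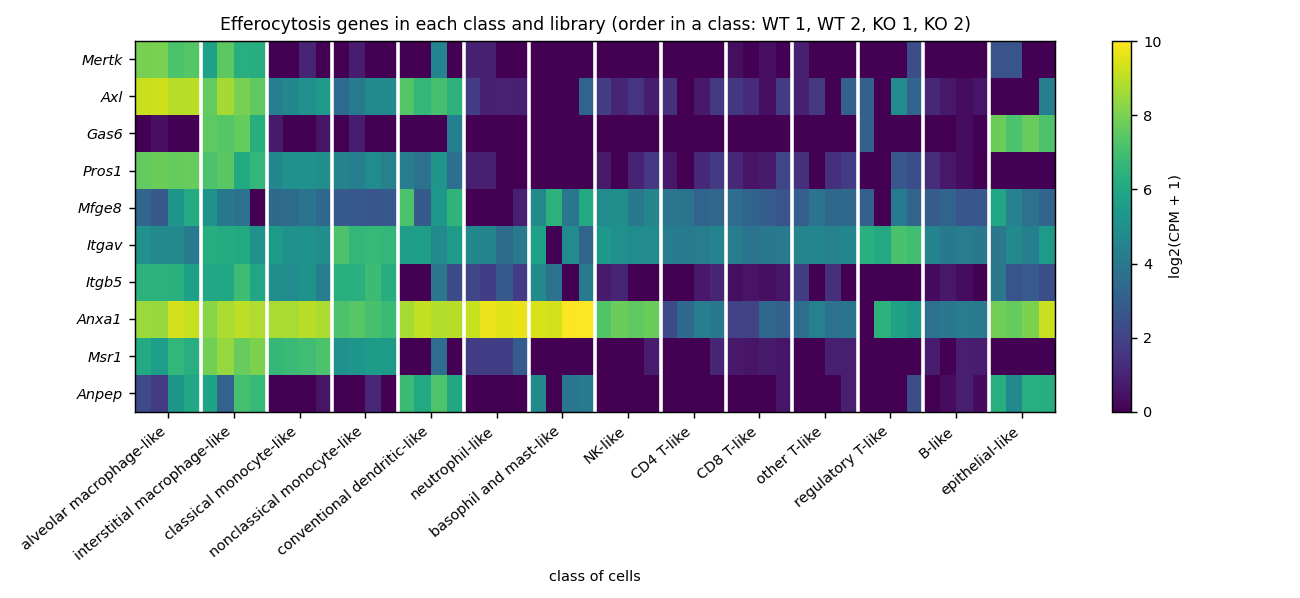
Level of each gene, as log2(CPM + 1) by colour, in 14 classes (x axis) and the 4 libraries of each class. Mertk, Axl and Pros1 were brightest in alveolar and interstitial macrophage-like cells, Gas6 was bright in interstitial macrophage-like and epithelial-like cells, and Anxa1 was bright in most myeloid classes.

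Mertk, the TAM receptor known for dead-cell uptake by macrophages, had 1781 UMIs in 503 alveolar macrophage-like cells and 8 UMIs in the other 8 tested classes together, which hold 61872735 UMIs of all genes. Its WT level was 253 ± 3.77 CPM (SD, n = 2) in alveolar macrophage-like cells and 116 ± 91.1 CPM (SD, n = 2) in interstitial macrophage-like cells, a class of only 19 and 8 WT cells. The interstitial values, 52.0 and 181 CPM, both lay below the alveolar values of 250 and 255 CPM, and 17 of the 23 UMIs of WT 2 came from 1 cell. No UMI of Mertk was seen in any B-like, CD4 T-like or NK-like cell.

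Axl, the other TAM receptor here, was spread over more classes. It stood at 609 ± 24.7 CPM in WT alveolar macrophage-like cells, 301 ± 153 CPM in interstitial macrophage-like and 130 ± 45.5 CPM in conventional dendritic-like cells (SD, n = 2 each). The last of these ranges, 97.7 to 162 CPM, lay below that of the interstitial class, 193 to 409 CPM. Classical monocyte-like cells held 21.9 ± 3.99 CPM and nonclassical monocyte-like cells 13.7 ± 4.82 CPM (SD, n = 2 each), with values of 19.0 and 24.7 against 10.3 and 17.1 that did not overlap. B-like, neutrophil-like, NK-like, CD4 T-like and CD8 T-like cells stayed under 3 CPM in each WT library. In the 19 fibroblast- and pericyte-like cells left in the sort, Axl was at 313 to 1.32e+03 CPM per library, which overlaps the alveolar range.

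The 2 TAM ligands differed in their place. Pros1, which encodes protein S, was carried by alveolar macrophage-like cells at 204 ± 16.2 CPM and by interstitial macrophage-like cells at 161 ± 17.3 CPM, followed among the tested classes by classical (28.4 ± 6.1 CPM) and nonclassical (20.2 ± 1.36 CPM) monocyte-like cells (SD, n = 2 each). Fibroblast-like and endothelial-like WT cells held 154 ± 58 and 172 ± 82.5 CPM (SD, n = 2 each). WT 1 and WT 2 had only 3 and 4 fibroblast-like and 6 and 2 endothelial-like cells, so these levels rest on few UMIs. The WT values of the alveolar class, 193 and 216 CPM, lay above those of the interstitial class, 148 and 173 CPM. Gas6, the other ligand, had 1 UMI among 7424911 in alveolar macrophage-like cells. It reached 182, 165, 199 and 75.2 CPM in interstitial macrophage-like cells (WT 1, WT 2, knockout 1, knockout 2) and 216, 144, 204 and 147 CPM in epithelial-like cells. The 19 fibroblast- and pericyte-like cells held 750, 32.2, 341 and 255 CPM. In these 3 classes the genotypes overlapped, and 10 of the 17 interstitial macrophage-like cells of knockout 1 carried a Gas6 UMI.

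MFG-E8, a bridging protein that binds phosphatidylserine and alpha-V integrins, was measured at low levels in the WT classes with enough cells to test. Among the 9 tested classes Mfge8 was highest in NK-like cells, at 29.3 ± 2.12 CPM in WT, followed by CD4 T-like cells at 13.9 ± 0.791 CPM (SD, n = 2 each). Alveolar macrophage-like cells held 7.42 ± 1.78 CPM in WT (8.68 and 6.16), at the low end of the 6.51 to 30.8 CPM seen in the tested B-like, T-like and NK-like classes. Smaller classes held more, with 144 and 6.11 CPM in conventional dendritic-like, 55.9 ± 42.3 CPM (SD, n = 2) in basophil- and mast-like, and 58.9 and 20.5 CPM in epithelial-like WT cells. The few fibroblast-like (3 and 4) and endothelial-like (6 and 2) WT cells held 184 ± 103 and 200 ± 42.3 CPM (SD, n = 2 each). Itgav, the integrin subunit alpha-V, was highest of the tested classes in nonclassical monocyte-like cells, at 124 ± 36.1 CPM, and stood at 29 ± 5.21 CPM in alveolar macrophage-like cells (SD, n = 2 each). Its partner Itgb5 was at 85.1 ± 1.66 CPM in alveolar and 78 ± 3.49 CPM in nonclassical monocyte-like cells (SD, n = 2 each). The WT ranges of these 2 classes, 83.9 to 86.2 and 75.5 to 80.5 CPM, were adjacent. Both integrin transcripts were found together in alveolar macrophage-like, interstitial macrophage-like and both monocyte-like classes, whereas T-like, B-like and NK-like cells held Itgav with under 3 CPM of Itgb5 per WT library.

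Annexin A1, a phosphatidylserine-binding protein that also acts on formyl peptide receptors, was carried by most myeloid classes. Among immune cells, Anxa1 stood at 706 ± 186 CPM in neutrophil-like, 657 ± 27.4 in basophil- and mast-like, 482 ± 95.7 in conventional dendritic-like, 431 ± 0.613 in classical monocyte-like and 358 ± 6.15 CPM in alveolar macrophage-like WT cells (SD, n = 2 each). Neutrophil-like (574 and 837 CPM) and basophil- and mast-like values (676 and 637 CPM) overlapped, so their order is not resolved. Msr1, a class A scavenger receptor, was highest in interstitial macrophage-like cells at 290 ± 79.2 CPM, then classical monocyte-like (107 ± 9.24 CPM), alveolar macrophage-like (58.1 ± 14 CPM) and nonclassical monocyte-like cells (34.8 ± 3.11 CPM), all with n = 2 and SD. The WT ranges of these 4 classes did not overlap. Anpep, the membrane aminopeptidase CD13, was found in conventional dendritic-like (90.6 ± 33.2 CPM), epithelial-like (52.1 ± 37.4 CPM) and interstitial macrophage-like cells (31.8 ± 33.8 CPM; SD, n = 2 each). Fibroblast- and pericyte-like cells held 167 ± 77.6 CPM (SD, n = 2). Its 10 UMIs in the other 8 tested classes together compare with 75 in alveolar macrophage-like cells.

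The genotypes were then compared in alveolar macrophage-like cells, the class with most of the Mertk and Axl. Anpep, Mfge8 and Anxa1 rose and Mertk fell, while Axl, Pros1, Itgav, Itgb5 and Msr1 did not pass the test. Of the 10 genes 9 passed the count filter, and 4 of them were called at an adjusted p under 0.05, where 6.56% of 8932 genes were called. By direction, 3 were called higher, against 3.59% of all genes, and 1 lower, against 2.97%. The median log2 fold change over all genes tested was 0.00. The changes of Anpep, Mfge8 and Mertk in this class were known when the 10 genes were listed, so their count is a description.

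**Figure D2:**
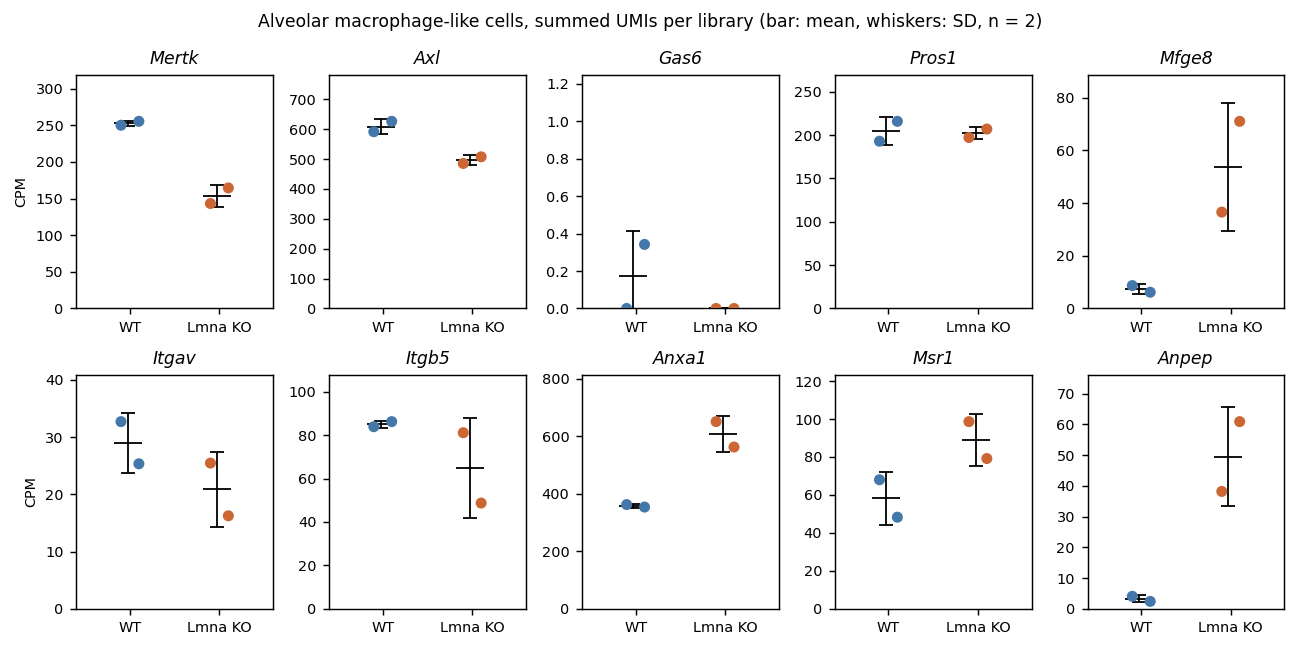
CPM of each gene in alveolar macrophage-like cells, 1 point per library (y axis, starting at 0; WT blue, knockout orange), with the mean and SD of 2 libraries. The knockout points lie above both WT points for Mfge8, Anxa1, Msr1 and Anpep and below both for Mertk, Axl and Itgb5.

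Mertk stood at 250 and 255 CPM in WT and at 143 and 164 CPM in knockout libraries. Both knockout values lay below both WT values, and Mertk fell by 0.72 on the log2 scale (SE 0.15, adjusted p = 0.00329, edgeR). Leaving out any 1 library gave falls of 0.63 to 0.81. Axl stood at 591 and 626 CPM in WT and 485 and 508 CPM in knockout libraries. Those values did not overlap either, as was the case for 51.3% of all genes, and the log2 fold change of -0.30 (SE 0.13) did not pass the test (adjusted p = 0.20, edgeR). At least 1 Axl UMI was present in 204 of 206, 210 of 218, 47 of 50 and 28 of 29 cells of WT 1, WT 2, knockout 1 and knockout 2, and 192, 188, 39 and 24 of these cells carried Mertk too.

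The ligands gave no call. Pros1 was at 193 and 216 CPM in WT and 197 and 207 CPM in knockout libraries, values that overlap, with a log2 fold change of -0.02 (SE 0.15, adjusted p = 0.967, edgeR). Gas6 had 0, 1, 0 and 0 UMIs and was not tested. With 0 of 50 and 0 of 29 knockout cells carrying it, the exact 95% intervals reach up to 7.11% and 11.9%, a limit on cells with a UMI at this depth and not on cells that express Gas6.

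Mfge8, in contrast, rose from 8.68 and 6.16 CPM in WT to 36.6 and 71.1 CPM in knockout alveolar macrophage-like cells. These values come from 30, 18, 23 and 35 UMIs, so the 79 knockout cells held more Mfge8 UMIs than the 424 WT cells. Both knockout libraries lay above both WT libraries and above every WT value of the other 8 tested classes, and the log2 fold change was 2.79 (SE 0.34, adjusted p = 4.13e-06, edgeR). In knockout 2, 1 cell held 18 of the 35 UMIs. Without that cell the log2 fold change was 2.27 (SE 0.35, adjusted p = 9.44e-05, edgeR), and without the whole library 2.28. That cell carried 476 UMIs of Chil3, an alveolar macrophage marker, 4 of Anpep, and none of Axl, Mertk, C1qa, Flt3 or Ccr7.

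Anpep rose from 4.05 and 2.40 CPM in WT to 38.2 and 60.9 CPM in knockout libraries, from 14, 7, 24 and 30 UMIs. The groups did not overlap, and the log2 fold change was 3.86 (SE 0.39, adjusted p = 5.51e-08, edgeR). Under a stricter cell filter, which left 15 to 95 cells per library, it was 5.38 for Anpep and 3.76 for Mfge8. Free RNA from cells that express a gene can place UMIs in other cells, and its part in these values was not tested. The shares of cells are given beside those in B-like cells. An Anpep UMI was found in 4.85% and 2.75% of WT and 22.0% and 37.9% of knockout alveolar macrophage-like cells, against at most 0.126% of B-like cells in any library. For Mfge8 the shares were 12.6%, 7.34%, 28.0% and 37.9%, against 2.13% to 3.78% of B-like cells, whose median depth was 3414 to 3879 UMIs. The WT levels of Mfge8 in CPM overlapped between these classes. B-like cells had fewer UMIs per cell and were not thinned. Their lower shares are therefore no measure of free RNA for Mfge8 or for Anpep. With each alveolar macrophage-like cell thinned to 7717 UMIs, which left 191, 193, 39 and 29 cells, the expected shares were 2.38%, 1.66%, 17.8% and 24.8% for Anpep and 6.89%, 4.77%, 14.5% and 24.3% for Mfge8. Without thinning, 35 of 206 and 21 of 218 WT cells and 20 of 50 and 15 of 29 knockout cells held a UMI of Anpep or Mfge8. Both genes were seen in the same cell in 1 of 206 and 1 of 218 WT cells and in 5 of 50 and 7 of 29 knockout cells.

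**Figure D3:**
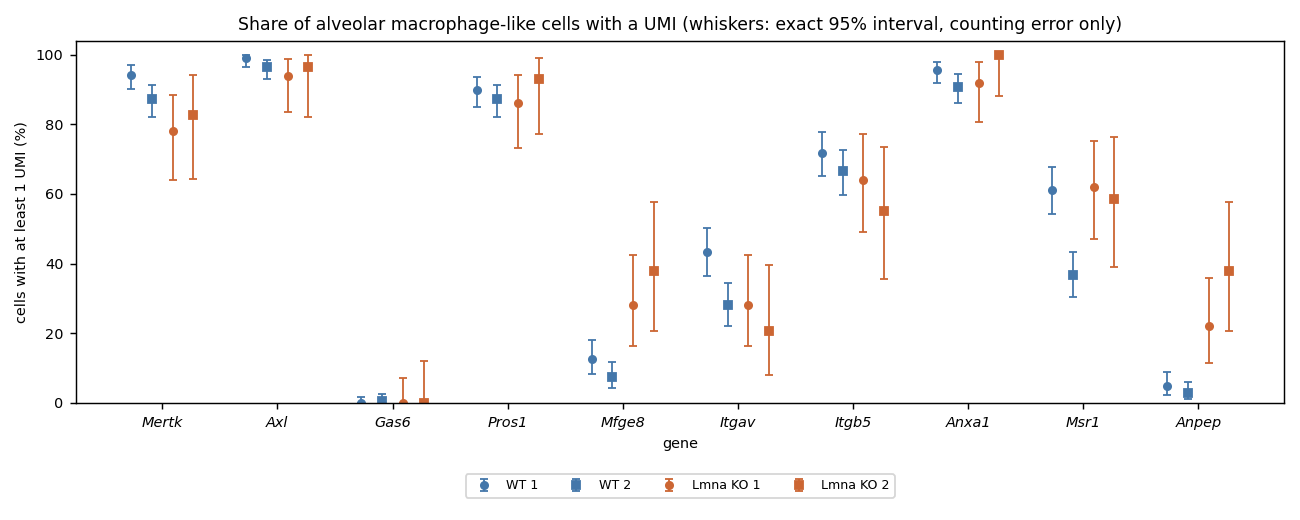
Alveolar macrophage-like cells in which a gene had 1 UMI or more, in percent (y axis), for each gene (x axis), 1 point per library with its exact 95% interval, which covers counting error only. The knockout shares of Mfge8 (28.0% and 37.9%) and Anpep (22.0% and 37.9%) lie above the WT shares, while Axl and Pros1 were found in at least 86.0% of cells in each library.

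Interstitial macrophage-like and conventional dendritic-like cells also carry Anpep, and the latter Mfge8, so their markers were read in the same sums. The gate used these marker lists too, so low values here are partly set by the gate. They cannot tell whether RNA of such cells is present. C1qa had 1, 13, 0 and 0 UMIs in alveolar macrophage-like cells of WT 1, WT 2, knockout 1 and knockout 2, and C1qb had 6, 3, 1 and 0. The 8 interstitial macrophage markers summed to 202 and 149 CPM in WT and 246 and 221 CPM in knockout libraries. Of the 6 markers of type 1 conventional dendritic cells 5, 4, 3 and 2 were detected, at 675, 707, 720 and 696 CPM together, with Naaa at 538, 581, 646 and 612 CPM and Wdfy4 most of the rest, while Xcr1, Clec9a and Cadm1 were at 0 UMIs in both knockout libraries. The 5 type 2 markers summed to 13.1, 18.2, 20.1 and 3.95 CPM, nearly all of it H2-DMb2, with Cd209a, Clec10a and Mgl2 at 0 UMIs in both knockout libraries. With cells at the edge of the gate left out, the log2 fold changes were 3.71 for Anpep and 2.78 for Mfge8. The 7 classical monocyte markers were at 641 and 678 CPM in WT and at 199 and 290 CPM in knockout libraries. That difference lay in Fn1, which encodes fibronectin (614, 662, 181 and 262 CPM), and each of the other 6 was at 15.8 CPM or less in every library, the highest being Ly6c2 in knockout 2. The 5 platelet markers were at 10.4, 10.3, 17.0 and 43.4 CPM in all, and the 7 T cell markers at 23.5, 28.6, 10.8 and 78.9 CPM. Their part in the results was not tested.

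Mfge8 and Anpep lie on the same chromosome, and both are transcribed from the minus strand of chromosome 7 (mm10; Mfge8 at 79133768-79149060, Anpep at 79821803-79861059, GENCODE M21 matched by Ensembl identifier). Their lower map coordinates, which are the 3-prime ends of these minus-strand genes, are 688.0 kb apart. The lower coordinates of 18 annotated genes lie between them, of which 3 were tested and none was called (edgeR). Abhd2, the nearest tested gene beyond Mfge8 on that side, had 42.8, 55.4, 57.3 and 44.7 CPM, with overlapping genotypes (log2 fold change 0.08, SE 0.23, adjusted p = 0.902, edgeR). On the other side of Mfge8, Aen had a log2 fold change of 0.02 (SE 0.36, adjusted p = 0.992, edgeR). Pex11a and Ap3s2, which flank Anpep, had log2 fold changes of 0.34 (SE 0.30) and 0.55 (SE 0.31), with adjusted p = 0.586 and 0.337 (edgeR). Within 1 Mb of Anpep, 2 other genes besides Mfge8 were called. Idh2, the mitochondrial isocitrate dehydrogenase, fell by 0.89 (SE 0.21, adjusted p = 0.00888, edgeR), and Cib1, a calcium- and integrin-binding protein, rose by 0.58 (SE 0.17, adjusted p = 0.0364, edgeR). Over the 21 tested neighbours of Anpep the median log2 fold change was -0.09, and over the 12 of Mfge8 it was 0.10.

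**Figure D4:**
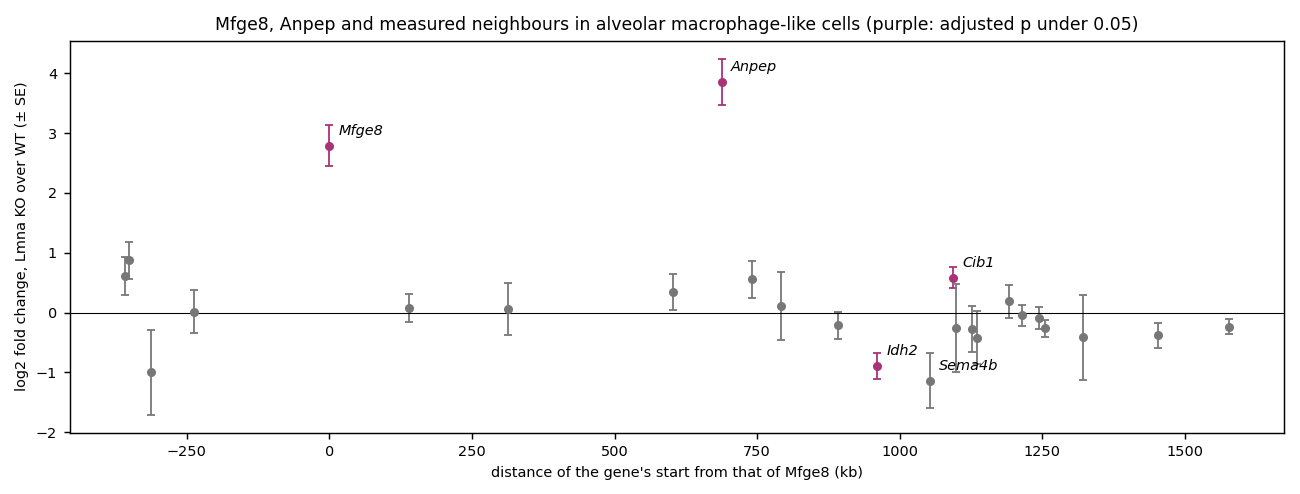
Log2 fold change (knockout over WT, ± SE, y axis) of Mfge8, Anpep and their tested neighbours in alveolar macrophage-like cells. The x axis gives the distance in kb of each gene's lower map coordinate, labelled as its start, from that of Mfge8. Mfge8 at 2.79 and Anpep at 3.86 stand above the genes around them, and Idh2 and Cib1 are the other called genes.

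Because these 2 genes showed the largest fold changes of the 10, the RefSeq sequences around their starts are shown (GRCm38.p6, 250 bases before to 50 after the start, both on the minus strand, 5′ to 3′), with capitals marking each CpG. Mfge8 is at chr7:79149011-79149310 and Anpep at chr7:79848161-79848460; the Anpep window lies inside the longer GENCODE gene, so starts further upstream are not covered, and 3-prime counts do not tell which start was used.
Mfge8: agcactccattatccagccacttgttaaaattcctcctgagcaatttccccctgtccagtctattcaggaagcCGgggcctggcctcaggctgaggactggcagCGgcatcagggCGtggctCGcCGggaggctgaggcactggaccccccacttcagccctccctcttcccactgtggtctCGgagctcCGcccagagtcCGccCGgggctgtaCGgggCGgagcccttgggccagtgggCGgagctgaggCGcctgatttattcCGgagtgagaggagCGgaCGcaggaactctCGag
Anpep: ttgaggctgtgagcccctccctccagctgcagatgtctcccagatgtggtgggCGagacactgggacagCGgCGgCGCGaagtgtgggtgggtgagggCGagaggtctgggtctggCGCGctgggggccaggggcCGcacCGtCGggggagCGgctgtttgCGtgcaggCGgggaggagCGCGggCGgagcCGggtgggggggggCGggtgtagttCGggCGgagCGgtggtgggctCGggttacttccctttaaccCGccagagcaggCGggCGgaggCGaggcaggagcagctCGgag
The Mfge8 window holds 17 CpG and the Anpep window 28. At least 17 CpG occur in 31.4% of the 32851 promoter windows of this length, and at least 28 in 14.2%. Searched on both strands, neither window held TGANTCA (an AP-1 site, in 7.81% of all windows), CACGTG (an E-box bound by MITF and TFE factors, 7.15%), GAGGAAGT (a PU.1 site, 3.20%) or a direct repeat of the nuclear receptor half-site with 1 base between (0.0396%). Of the 10 genes 9 had an entry in the table, and Itgav held 1 match to GAGGAAGT.

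Annexin A1 stood at 362 and 354 CPM in WT and at 651 and 562 CPM in knockout alveolar macrophage-like cells. Both knockout values lay above both WT values, and Anxa1 rose by 0.76 on the log2 scale (SE 0.13, adjusted p = 0.000399, edgeR). Unlike Mfge8, it was detected in 95.6% and 90.8% of WT cells. Its only tested neighbour within 1 Mb on chromosome 19, Zfand5, had a log2 fold change of -0.18 (SE 0.16, adjusted p = 0.586, edgeR). The nearest tested neighbours of Mertk on chromosome 2, Anapc1 and Tmem87b, had log2 fold changes of 0.42 (SE 0.26) and -0.06 (SE 0.25), with adjusted p = 0.395 and 0.935 (edgeR).

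Itgav was at 32.7 and 25.3 CPM in WT and 25.5 and 16.2 CPM in knockout libraries, which overlap (log2 fold change -0.45, SE 0.32, adjusted p = 0.48, edgeR). Itgb5 was at 83.9 and 86.2 CPM in WT and 81.1 and 48.7 CPM in knockout libraries (log2 fold change -0.36, SE 0.20, adjusted p = 0.346, edgeR). The Itgb5 values did not overlap, but knockout 1 lay close to WT. Msr1 was at 68.0 and 48.3 CPM in WT and 98.6 and 79.2 CPM in knockout libraries. Its log2 fold change of 0.62 (SE 0.21) missed the threshold (adjusted p = 0.0718, edgeR) and passed it without WT 1 (0.88, adjusted p = 0.0179) or without knockout 2 (0.76, adjusted p = 0.0130). It was 0.39 (adjusted p = 0.394) without WT 2 and 0.43 (adjusted p = 0.432) without knockout 1.

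In the other 8 tested classes no member was called, over 30 pairs of member and class, and DESeq2 called none either, though it gave no adjusted p for the 4 pairs with the smallest p (Axl in both monocyte-like classes, Anxa1 in CD4 T-like and CD8 T-like cells). Few genes of any kind were called there: 0.461% in B-like, 0.628% in CD4 T-like, 0.405% in CD8 T-like, 0.463% in NK-like, 0.286% in other T-like, 0.205% in neutrophil-like, 0.663% in classical and 0.962% in nonclassical monocyte-like cells. At an unadjusted p under 0.05 there were 6 of 30 pairs, where 8.08% of all gene tests in these classes passed. These 6 were Axl and Msr1 in classical monocyte-like cells, Axl and Anxa1 in nonclassical monocyte-like cells, and Anxa1 in CD4 T-like and CD8 T-like cells.

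Axl was at 19.0 and 24.7 CPM in WT and 31.7 and 41.5 CPM in knockout classical monocyte-like cells (log2 fold change 0.73, SE 0.22, adjusted p = 0.226, edgeR). In nonclassical monocyte-like cells it was at 10.3 and 17.1 CPM in WT and 25.8 and 26.5 CPM in knockout libraries (log2 fold change 0.96, SE 0.29, adjusted p = 0.142, edgeR). In both monocyte classes the knockout values lay above the WT values, the reverse of their order in alveolar macrophage-like cells. Under the stricter cell filter the nonclassical value was called (1.15, adjusted p = 0.0438). It was called under no other setting tried, and was 0.61 (adjusted p = 0.864) without WT 1.

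Anxa1 was at 3.89 and 9.77 CPM in WT and 18.4 and 15.5 CPM in knockout CD4 T-like cells, from 7 to 31 UMIs (log2 fold change 1.43, SE 0.41, adjusted p = 0.149, edgeR). It passed the test without a filter on low counts (1.43, adjusted p = 0.0395) and without WT 2 (2.10, adjusted p = 0.00587), but was 0.79 (adjusted p = 0.851) without WT 1 and had adjusted p = 0.678 and 0.616 without knockout 1 and knockout 2. In CD8 T-like cells it was at 2.98 and 3.12 CPM in WT and 9.11 and 7.39 CPM in knockout libraries (log2 fold change 1.44, SE 0.43, adjusted p = 0.278, edgeR). With doublets kept the value was 2.44 (SE 0.67, adjusted p = 0.416, edgeR). The knockout values were higher in both T-like classes, at levels far under those of myeloid cells. In nonclassical monocyte-like cells the order was the reverse, with 149 and 169 CPM in WT and 135 and 111 CPM in knockout libraries (log2 fold change -0.37, SE 0.14, adjusted p = 0.325, edgeR). Msr1 in classical monocyte-like cells was at 100 and 113 CPM in WT and 120 and 142 CPM in knockout libraries (log2 fold change 0.30, SE 0.13, adjusted p = 0.529, edgeR).

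**Figure D5:**
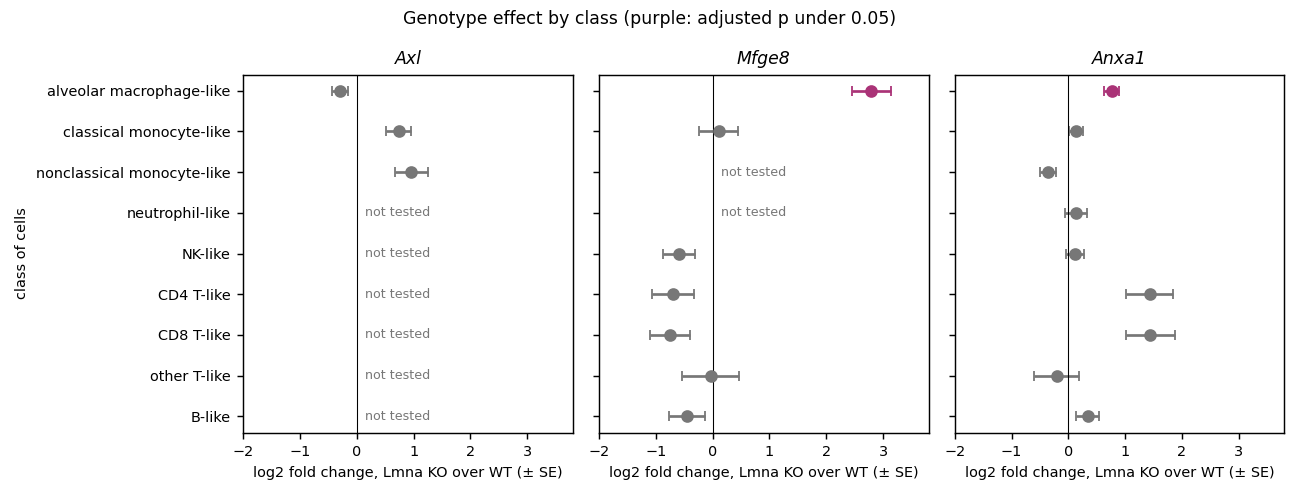
Log2 fold change (knockout over WT, ± SE, x axis) of Axl, Mfge8 and Anxa1 in each tested class (y axis), purple where the adjusted p was under 0.05. Mfge8 at 2.79 and Anxa1 at 0.76 in alveolar macrophage-like cells are the called values, and Axl lies below 0 there and above 0 in both monocyte classes.

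Mfge8 was lower in knockout than in WT libraries without overlap in B-like, CD4 T-like, CD8 T-like and NK-like cells. In these classes 37.1%, 38.5%, 38.9% and 37.9% of genes had no overlap, and none of these 4 passed the test (adjusted p 0.611 to 0.822, edgeR). In NK-like cells, for example, it was at 27.8 and 30.8 CPM in WT and 15.4 and 22.5 CPM in knockout libraries. The difference of the genotype effect between classes was tested directly, in pairs of alveolar macrophage-like cells and 1 other class with the library as a block. All pairs of a member reuse the same alveolar macrophage-like sums. They are not independent, and the number of pairs called is a description. Of 37 pairs of member and class 11 were called, where the share of all genes called was 1.57% against B-like, 0.972% against CD4 T-like, 0.785% against CD8 T-like, 0.984% against NK-like, 0.48% against other T-like, 0.128% against neutrophil-like, 0.921% against classical and 1.44% against nonclassical monocyte-like cells. For Mfge8 the effect in alveolar macrophage-like cells exceeded that in all 7 classes that could be tested, by 2.68 (classical monocyte-like) to 3.41 (CD4 T-like) on the log2 scale, with adjusted p up to 0.0316 (edgeR). For Axl it lay below that in classical (-1.05, SE 0.22, adjusted p = 0.0136) and nonclassical monocyte-like cells (-1.25, SE 0.29, adjusted p = 0.0153, edgeR). For Anxa1 it exceeded that in classical (0.61, SE 0.13, adjusted p = 0.0195) and nonclassical monocyte-like cells (1.13, SE 0.17, adjusted p = 9.3e-05, edgeR). Mertk and Anpep had too few UMIs elsewhere for this test. With 1 library left out, 7 (without WT 1), 8 (without WT 2), 8 (without knockout 1) or 6 (without knockout 2) of the 11 were called. Mfge8 against CD4 T-like, CD8 T-like and NK-like cells and Anxa1 against nonclassical monocyte-like cells passed each time. The Axl differences were then -0.90 and -0.94 (adjusted p = 0.172 and 0.451) without WT 1, and -0.86 and -1.25 (adjusted p = 0.12 and 0.096) without knockout 2.

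Interstitial macrophage-like cells, with 19, 8, 17 and 10 cells, were tested as an addition after their number was seen. Anpep was at 55.7 and 7.86 CPM in WT and 131 and 102 CPM in knockout libraries, from 15, 1, 41 and 19 UMIs. The knockout values were higher, and the log2 fold change of 1.60 (SE 0.51) was not called (adjusted p = 0.146, edgeR). Of the 41 UMIs in knockout 1, 25 came from 1 cell. Pros1 was at 148 and 173 CPM in WT and 67.3 and 96.7 CPM in knockout libraries (log2 fold change -0.98, SE 0.36, adjusted p = 0.22, edgeR). Mertk there was at 52.0, 181, 76.9 and 75.2 CPM, with overlapping genotypes. Across 7 such small classes none of 18 pairs was called by edgeR, and 4 had an unadjusted p under 0.05. Over all genes of these classes, 0.987% of tests were called and 8.61% had an unadjusted p under 0.05.

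Other genes of dead-cell uptake were read in alveolar macrophage-like cells from 6 lists. Of 65 genes 43 passed the count filter, 5 were called higher and 5 lower, where 3.59% and 2.97% of all genes in this class were. The lists were drawn up with results of these data known, so these counts are a description. The median log2 fold change was -0.05, beside 0.00 over all genes. Among 13 tested engulfment receptors 3 rose and 2 fell. Cd300a, an inhibitory receptor for phosphatidylserine, rose from 21.4 and 25.7 to 71.6 and 91.4 CPM (log2 fold change 1.78, SE 0.23, adjusted p = 4.13e-06, edgeR). Marco, a scavenger receptor of the same class as Msr1, rose from 624 and 648 to 1112 and 1041 CPM (0.76, SE 0.13), and Cd93 from 106 and 87.3 to 157 and 205 CPM (0.89, SE 0.17). Cd36, a scavenger receptor for lipids, fell from 359 and 262 to 200 and 213 CPM (-0.59, SE 0.16), and Lrp1, which binds calreticulin on dying cells, from 553 and 486 to 345 and 398 CPM (-0.49, SE 0.14).

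Of 3 tested bridging and find-me genes 1 rose, Lgals3, which encodes galectin-3, a reported MERTK ligand (from 2495 and 2048 to 3832 and 3325 CPM, log2 fold change 0.66, SE 0.12). Calr was at 698 and 796 CPM in WT and 1020 and 936 CPM in knockout libraries and missed the threshold (adjusted p = 0.066, edgeR). Of 4 annexin A1 receptors and shedding proteases 2 fell, both formyl peptide receptors. Fpr2, which binds annexin A1, was at 188 and 198 CPM in WT and 137 and 73.1 CPM in knockout libraries (log2 fold change -0.84, SE 0.20, adjusted p = 0.011, edgeR). Fpr1 was at 189 and 176 CPM in WT and 130 and 67.0 CPM in knockout libraries (-0.85, SE 0.20, adjusted p = 0.0167, edgeR). Adam10 and Adam17, proteases of which the latter sheds MERTK from the cell surface, had log2 fold changes of 0.18 (SE 0.16) and -0.07 (SE 0.22) and were not called.

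None of 6 tested engulfment signalling genes was called by edgeR, and the lowest p in the list belonged to Dock1 (log2 fold change -0.61, SE 0.35, adjusted p = 0.34). Crk, Rac1 and Elmo1 had log2 fold changes of -0.16, 0.09 and -0.12. Among 3 do-not-eat-me genes 1 rose, Cd24a, from 214 and 200 to 398 and 349 CPM (0.86, SE 0.14, adjusted p = 0.000199, edgeR), while Cd47 (-0.22) and its receptor Sirpa (-0.19) were not called. Of 14 corpse-processing and lipid genes 1 fell, Pparg, a nuclear receptor needed for alveolar macrophage identity, from 153 and 138 to 100 and 89.3 CPM (-0.62, SE 0.17, adjusted p = 0.0251, edgeR). Map1lc3b (0.38), Rxra (-0.45) and Slc16a1 (0.95) had adjusted p = 0.105, 0.146 and 0.226 (edgeR).

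The genes whose levels followed a member most closely over 36 sums (9 classes, 4 libraries) were ranked by Pearson's r of log2 CPM with a prior count of 1, among 9182 genes. The sums share libraries and differ in depth, so r is a description. For Mertk they were Mak, Flvcr2 and Vstm2a (each r = 0.98), and for Axl they were Lpl (a marker used to gate the class), Pros1 and Shtn1 (r = 0.96, 0.96 and 0.96). Pros1, the TAM ligand, is itself one of the 10 genes. Anxa1 was followed by Actg1, Rab11a and Arpc5 (r = 0.96, 0.96 and 0.96), and Mfge8 by Nans, Tma7 and Srp19 (r = 0.91, 0.90 and 0.90).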

How the data were processed

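Single-cell 3-prime libraries of sorted live CD45.2+ lung cells from 2 WT and 2 Lmna knockout mice were used as raw UMI counts per gene and barcode, as deposited by the authors; Cell Ranger 3.0.2, Seurat 3.0.0 and the mm10 build are named in the submitters' processing notes. Barcodes under 200 genes or above 10% mitochondrial UMIs were left out, and simulated doublets were used to remove 0.8% per 1000 cells. A cell joined a class when its markers passed a gate, checked against 31 clusters. UMIs were summed per library and class, and genotypes were compared with edgeR 4.0.16 (quasi-likelihood test, TMM, filterByExpr) in R 4.3.3, with Benjamini-Hochberg adjustment over all genes tested in a class and a threshold of 0.05, in the 9 classes that held 25 or more cells per library. Per-cell shares carry exact 95% Clopper-Pearson intervals, which cover counting error only. Alternatives were DESeq2 1.42.0 (size factors, Wald test), no count filter, a replicate block, each library left out, doublets kept, a stricter cell filter (500 genes, 5% mitochondrial UMIs), a stricter gate and clusters in place of gates. The fit was tested on simulated counts. The members and lists were chosen with earlier results of these data known. The genes named are the 10 members, Lmna, cell type markers and up to 4 genes by p from each list of other efferocytosis genes. Lrp1, a called gene at rank 5 by p in its list, was named as well. Called neighbours within 1 Mb of a called member were named, with the nearest tested neighbour on each side. The 3 genes most correlated with Mertk, Axl, Mfge8 and Anxa1 complete the names. Promoter sequences are from RefSeq.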

Additional observations from a re-analysis of the deposited data

Results flagged for a closer look

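The genotype effect (knockout minus WT, log2) differed between alveolar macrophage-like cells and another class in 11 pairs of gene and class, by a test of the difference itself. Pairs of the same gene share their alveolar macrophage-like sums and are not independent. For Mfge8 the effect in alveolar macrophage-like cells was larger by 3.15 than in B-like, 3.41 than in CD4 T-like, 3.38 than in CD8 T-like, 3.34 than in NK-like, 2.68 than in classical monocyte-like, 2.87 than in nonclassical monocyte-like and 2.74 than in other T-like cells. For Anxa1 it was larger by 0.61 than in classical and by 1.13 than in nonclassical monocyte-like cells. For Axl the difference was -1.05 against classical and -1.25 against nonclassical monocyte-like cells, where the gene stood higher in knockout than in WT libraries.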

How the results depend on the processing

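In alveolar macrophage-like cells Anpep, Mfge8, Anxa1 and Mertk kept their direction under all alternatives tried. Keeping doublets added no cell to this class, so that alternative could not differ from the main fit. With DESeq2's Wald test 1 member was called higher in place of 3, because that tool gave no adjusted p for Anpep and Mfge8, whose log2 fold changes were then 3.92 and 2.84. Pros1, at -0.02, changed sign under the stricter gate (0.018), without WT 2 (0.055) and without knockout 1 (0.0081), and was at -0.10 to 0.055 over the 4 fits with 1 library left out. In the other classes 1 member was called without a count filter and 1 under the stricter cell filter, and 0 to 1 with 1 library left out, in place of 0. Of the 11 differences between classes 6 to 8 were called with 1 library left out, a check added after seeing the data, and the smallest number was without knockout 2. Other efferocytosis genes called fell from 10 to 6 under the stricter cell filter. Over all genes in alveolar macrophage-like cells, 321 were called higher and 265 lower, against 113 and 90 with DESeq2, 155 and 113 under the stricter cell filter, 140 and 141 without WT 1, and 322 and 413 without a count filter. The labels give no pairing beyond a number, so the main fit had no block. The deviations of same-numbered WT and knockout libraries had r = 0.02 in this class, and r from -0.07 to 0.099 over the tested classes. With the replicate block the member calls stayed at 3 higher and 1 lower, with 2.78 for Mfge8, 3.85 for Anpep and -0.72 for Mertk. The stricter cell filter could not be run in B-like and other T-like cells, nor clusters for other T-like cells. The 50 and 29 knockout cells limit the precision of every comparison in this class.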
